A study of Mus musculus with 10 samples.

Results

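Oxidative phosphorylation genes were followed through the differentiation of mouse embryonic stem cells towards neuromesodermal progenitors. They were taken from the deposited count table by symbol: names that begin with mt-, Nduf, Uqcr, Atp5 or Cox4 to Cox8, and Sdha to Sdhd, without pseudogene names that end in -ps. This gave 130 of 52459 symbols, of which 37 are encoded by the mitochondrial genome and 93 by nuclear genes. A filter on low counts left 105 of the 130 for testing, 16 mitochondrially encoded and 89 nuclear. The 25 that did not pass were 6 mitochondrial protein genes, 15 mitochondrial tRNAs and the restricted complex IV isoforms Cox4i2, Cox7b2, Cox8b and Cox8c.

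All libraries came from 1 wild-type stem cell line, ES-Bruce4 on the C57BL/6 background. Before differentiation the cells were kept on inactivated mouse embryo fibroblasts, which were depleted once. Basic Fgf at 10 ng/ml was given from day 0, CHIR99021, an activator of Wnt signalling, at 5 µM from day 2, and the cultures were split on day 3. There were 5 groups of 2 libraries each. D7G was collected on day 7 after 24 h with human Gdf11 at 50 ng/ml, D7 on the same day without Gdf11, and D2, D3 and D6 on days 2, 3 and 6. The labels call D2 cells epiblast stem cells and all later groups neuromesodermal progenitors. Summed markers of epiblast were 576 to 589 CPM (counts scaled to library size) at D3, against 2351 to 2352 CPM at D2. Among them Nanog went the other way, with 162 and 156 CPM at D3, against 134 and 143.5 CPM at D2. Summed markers of neuromesodermal progenitors were 845 to 847 CPM at D3, against 166 to 173 CPM at D2, although Sox2 among them overlapped. Nothing in the labels says that the 2 libraries of a group came from separate cultures, so p-values here measure only how far such libraries lie apart, which may be technical spread.

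Oxidative phosphorylation makes ATP in the inner mitochondrial membrane. Complexes I to IV pass electrons from NADH and succinate to oxygen, complexes I, III and IV pump protons, and complex V, the ATP synthase, uses the proton gradient. Complexes I, III, IV and V hold core subunits encoded by mitochondrial DNA beside many nuclear encoded subunits, while complex II is nuclear encoded throughout. The mitochondrial rRNAs and tRNAs serve the translation of the mitochondrial mRNAs. Pluripotent cells are known for a glycolytic metabolism, and differentiation is often accompanied by a larger part for respiration.

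The counts of 6 adjacent mitochondrial protein genes were at or near 0 in every library. mt-Co2, mt-Co3 (core subunits of complex IV), mt-Atp6, mt-Atp8 (complex V), mt-Nd3 and mt-Nd4l (complex I) together held 3 counts over the 10 libraries in the table analysed, and 1887 counts in a second deposited table made per Ensembl gene. By comparison, the neighbouring mt-Co1 had 2789931 counts in the first table and 2833973 in the second. A stretch of chromosome 1 carries annotated unprocessed pseudogenes of the same order, and 5 of the 6 genes are almost identical to them. The share of a gene's 50-base stretches that also occur in another annotated gene was 100% for mt-Co2, 99.9% for mt-Co3, 99.5% for mt-Atp6, 98.8% for mt-Nd4l and 98.0% for mt-Nd3. For mt-Atp8 the share was 0%. mt-Nd4 and mt-Co1, at the ends of the copied stretch, had shares of 62.2% and 51.1% and had counts, while the shares of mt-Nd1, mt-Cytb and mt-Nd6 were 0%. The part of reads that map to both places in these low counts was not tested. The first 60 bases of mt-Co2 (mm10 chrM:7013-7072, plus strand) and of its copy Gm28661 (mm10 chr1:24615506-24615565, minus strand) are identical, and the 681 bases of both were identical throughout. The same window of mt-Nd3 (mm10 chrM:9459-9518, plus strand) and Gm28438 (mm10 chr1:24613060-24613119, minus strand) holds the only mismatch over 345 bases, set in capitals. They are shown because this near identity bears on which members short reads can count.
mt-Co2: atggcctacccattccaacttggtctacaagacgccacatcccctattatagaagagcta
Gm28661: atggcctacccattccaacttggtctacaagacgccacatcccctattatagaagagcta
mt-Nd3: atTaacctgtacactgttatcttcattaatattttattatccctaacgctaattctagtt
Gm28438: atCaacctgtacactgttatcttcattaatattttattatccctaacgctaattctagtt

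**Figure D1:**
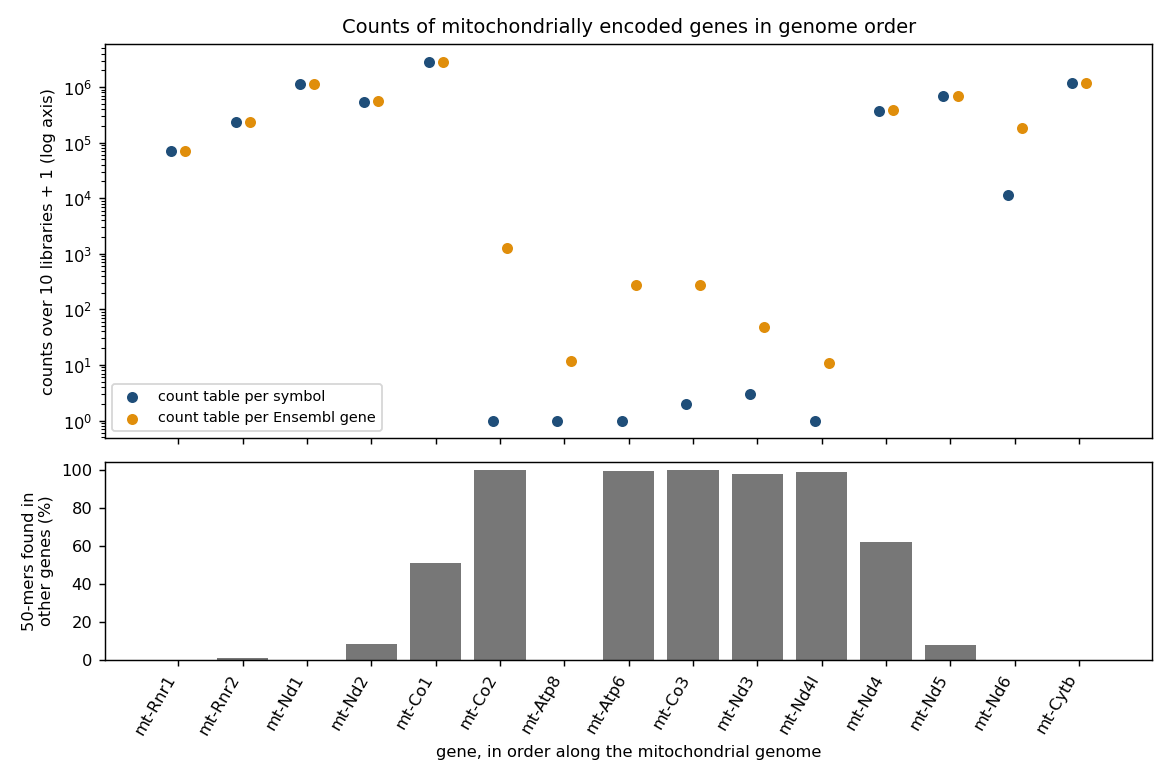
Counts summed over the 10 libraries plus 1 (upper panel, log axis) and the share of 50-base stretches found in other annotated genes in percent (lower panel) for the 13 protein and 2 rRNA genes in their order along the mitochondrial genome. Points show the count table per symbol and the count table per Ensembl gene. The 6 genes from mt-Co2 to mt-Nd4l lie far below their neighbours in both tables.

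Each library held 31078950 to 33418015 counts. Between the 2 libraries of a group, the counts of a gene differed more than counting error alone, the chi-square averaging 1.91 to 4.18 over all genes and 6.48 to 21.3 over the oxidative phosphorylation genes, and no pair agreed within counting error. At the same relative spread this chi-square grows with the count of a gene. Its size therefore does not show that members were less reproducible than other genes. Levels below are CPM with TMM-scaled library sizes. Differences are log2 fold changes from edgeR's quasi-likelihood test with the standard error (SE), n = 2 per group throughout, and a gene was called higher or lower at a Benjamini-Hochberg adjusted p under 0.05 over the 18818 genes tested. Called changes of nuclear subunit genes in D7G against D7 lay between -0.38 and 0.58 on the log2 scale.

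The 6 mitochondrial genes at or near 0 add almost nothing to the mitochondrial shares and medians below. They include mt-Atp6 and mt-Atp8 of complex V, so these values do not cover that complex. Per kilobase of exon, 6 of the 7 mitochondrial mRNAs tested were the most abundant protein-coding members, while mt-Nd6 averaged 53.2 CPM per kb at D2. At D2, mt-Co1, the catalytic core of complex IV, averaged 4938 CPM per kb, mt-Nd1 of complex I 3284 CPM per kb and mt-Cytb, the cytochrome b of complex III, 2878 CPM per kb. Because mt-Co1 shares 51.1% and mt-Nd4 62.2% of its 50-base stretches with other annotated genes, the counts of both are uncertain here and below. The highest nuclear levels at D2 were those of Atp5b and Atp5a1, which form the catalytic head of ATP synthase, at 485 and 395 CPM per kb, followed by Cox8a of complex IV at 274 CPM per kb. The median level per kb at D2 was 41.1 for the 38 complex I genes, 63.7 for the 4 complex II genes, 76.8 for the 8 complex III genes, 73.1 for the 14 tested complex IV genes and 59.4 for the 15 complex V genes. Genes were assigned to complexes by symbol here and below, so Ndufa4 and Ndufa4l2 count with complex I.

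Between D2 and D3, nuclear encoded subunits moved in both directions and, with TMM scaling, the mitochondrial mRNAs hardly moved. Of the 105 tested members, 17 were higher and 32 lower at D3, beside 29.6% higher and 28.9% lower among all genes tested. With library totals in place of TMM scaling the split was 31 higher and 19 lower, so the balance of directions changed with the scaling. It also changed with single libraries: 10 were higher without the second D2 library, and 19 were lower without the second D3 library. In complex IV 5 of 14 genes were higher, in complex I 5 of 38 were higher and 17 lower, and in complex V 6 of 15 were lower. The median log2 fold change was 0.03 for complex IV, -0.05 for complex I and -0.08 for complex V, beside 0.00 over all tested genes. With library totals, 3 of the 7 mitochondrial mRNAs were higher, with a median of 0.10, beside 0.08 over all tested genes. The mitochondrial share of all counts was 2.07% and 2.01% in D3 libraries, against 1.90% and 1.86% in D2 libraries. Summed over 7 genes, fibroblast markers were 285 to 293 CPM at D3, against 144.5 to 181 CPM at D2, although Thy1 was lower. The part of cell makeup at this step was not tested.

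Sdhb, the iron-sulfur subunit of complex II, had 79.7 and 78.8 CPM in D3 libraries, against 95.5 and 97.0 CPM in D2 libraries (log2 fold change -0.28, SE 0.04, edgeR adjusted p = 4.775e-06). Atp5k, a membrane subunit of ATP synthase, had 53.8 and 53.0 CPM at D3, against 66.1 and 68.1 CPM at D2 (log2 fold change -0.33, SE 0.07, edgeR adjusted p = 0.000284). Ndufv3, an accessory subunit of complex I, had 30.8 and 30.5 CPM at D3, against 41.2 and 41.3 CPM at D2 (log2 fold change -0.43, SE 0.05, edgeR adjusted p = 6.902e-07). In all of these genes both D3 libraries lay below both D2 libraries. The largest rise in complex I was that of Ndufb6, with a log2 fold change of 0.21 (SE 0.04, edgeR adjusted p = 0.0003929), and in complex III Uqcrh, the hinge protein, rose by 0.19 (SE 0.05, edgeR adjusted p = 0.001421) while Uqcrq fell by 0.28 (SE 0.05, edgeR adjusted p = 2.601e-05).

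The mitochondrial ribosomal RNAs parted at this step. mt-Rnr1, the small subunit rRNA, had 160 and 146 CPM in D3 libraries, against 298 and 280 CPM in D2 libraries (log2 fold change -0.92, SE 0.05, edgeR adjusted p = 5.6e-12). mt-Rnr2, the large subunit rRNA, had 666 and 612 CPM in D3 libraries, against 454 and 463 CPM in D2 libraries (log2 fold change 0.48, SE 0.04, edgeR adjusted p = 7.71e-09). The groups did not overlap for either gene, and the 2 rRNAs went opposite ways although they are neighbours transcribed from the same strand. The labels do not state how ribosomal RNA was treated in library preparation. Of the 7 mitochondrial mRNAs tested, mt-Nd1 alone passed the test, at a log2 fold change of 0.08 (SE 0.03, edgeR adjusted p = 0.03412). That call was lost without the second D2 library (adjusted p = 0.313) or the first D3 library (adjusted p = 0.196), and its adjusted p ranged up to 0.313 over the alternatives.

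From D3 to D6 most of the system rose. At D6, 65 of the 105 tested members were higher and 9 lower than at D3, while among all genes tested 32.4% were higher and 33.3% lower. Nuclear encoded subunits contributed 46 higher and 6 lower of 79, with a median log2 fold change of 0.18, and the mitochondrial mRNAs 7 higher of 7, with a median of 0.32; the median over all tested genes was -0.01. The mitochondrial share of all counts was 2.38% and 2.40% in D6 libraries, against 2.07% and 2.01% in D3 libraries, and the nuclear subunit share was 1.14% ± 0.00480 at D6 and 1.07% ± 0.00865 at D3 (mean ± SD, n = 2). An exact two-sided permutation test over 2 against 2 libraries cannot go below p = 0.333, which it gave for both shares. In bulk RNA, a change in the number of cells of a type and a change in RNA per cell cannot be told apart. Cell type markers moved at the same step. Summed neural progenitor markers were 142.5 to 162 CPM at D6, against 39.0 to 42.0 CPM at D3. Summed paraxial mesoderm markers were 52.1 to 64.9 CPM at D6, against 13.9 to 16.4 CPM at D3. Of these, Meox1 had 48.6 and 37.7 CPM at D6, against 0.245 and 0.308 CPM at D3, and Tcf15 rose too. Tbx6 and Msgn1 fell, with Msgn1 at 0.0966 and 0.387 CPM at D6, against 6.13 and 7.09 CPM at D3. The sum for neuromesodermal progenitors was 476 to 479 CPM at D6, against 845 to 847 CPM at D3, and that for epiblast 299 to 353 CPM at D6, against 576 to 589 CPM at D3. Within these last sums, Sox2, Sox3 and Fgf5 went the other way. Fibroblast markers summed to 185 to 197 CPM at D6, against 285 to 293 CPM at D3. Among them Col1a1 had 7.31 and 9.04 CPM at D6, against 101 and 95.5 CPM at D3. Only Col3a1 went the other way, with 180 and 166 CPM at D6, against 27.05 and 27.85 CPM at D3. The part of cell makeup in the rise of the members was not tested.

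By complex, the genes higher at D6 than at D3 were 22 of 38 in complex I (1 lower), 3 of 4 in complex II, 6 of 8 in complex III (1 lower), 11 of 15 in complex V and 4 of 14 in complex IV, where 4 were lower. The median log2 fold change was 0.18 in complex I, 0.20 in complex II, 0.24 in complex III, 0.22 in complex V and 0.00 in complex IV. Sdhb had 116 and 112 CPM in D6 libraries, against 79.7 and 78.8 CPM in D3 libraries (log2 fold change 0.53, SE 0.04, edgeR adjusted p = 3.487e-10). Uqcrfs1, the Rieske iron-sulfur protein of complex III, had 145 and 142 CPM at D6, against 112 and 107 CPM at D3 (log2 fold change 0.39, SE 0.04, edgeR adjusted p = 4.977e-08). Every D6 library lay above every D3 library for both. In complex V, Atp5k rose by 0.46 (SE 0.07, edgeR adjusted p = 3.992e-06) and Atp5g3, which encodes a c-ring subunit, by 0.33 (SE 0.04, edgeR adjusted p = 6.625e-08). In complex I the largest rise was that of Ndufa12, at 0.41 (SE 0.07, edgeR adjusted p = 2.62e-05), and the only fall that of Ndufa7, at -0.14 (SE 0.05, edgeR adjusted p = 0.0122), a call lost without a low-count filter (adjusted p = 0.0823) or without the first library of either group. Of its 50-base stretches Ndufa12 shares 17.7% with a processed pseudogene, so its counts are uncertain.

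Among the mitochondrial mRNAs the rise from D3 to D6 was uneven. mt-Nd2 had 2330 and 2250 CPM in D6 libraries, against 1471 and 1423 CPM in D3 libraries (log2 fold change 0.66, SE 0.03, edgeR adjusted p = 1.242e-12). mt-Cytb had 4495 and 4187 CPM at D6, against 3211 and 3137 CPM at D3 (log2 fold change 0.45, SE 0.04, edgeR adjusted p = 1.954e-09). mt-Co1 had 8393 and 9012 CPM at D6, against 7998 and 7980 CPM at D3 (log2 fold change 0.12, SE 0.04, edgeR adjusted p = 0.005569). The groups did not overlap for any of these genes, but the call of mt-Co1 was lost with library totals (adjusted p = 0.287) and without the second D6 library (adjusted p = 0.125). mt-Nd1 rose by 0.32, mt-Nd4 by 0.28 and mt-Nd5 by 0.24, all with an edgeR adjusted p of at most 0.0005438. mt-Nd6, the only mitochondrial mRNA of the light strand, rose by 0.76 (SE 0.18, edgeR adjusted p = 0.0008558) in the table analysed and by 0.26 (edgeR adjusted p = 6.828e-05) in the second table, which holds 15.6 times as many counts for it. The rRNAs now rose together, mt-Rnr1 by 0.55 (edgeR adjusted p = 8.635e-09) and mt-Rnr2 by 0.69 (edgeR adjusted p = 1.677e-11). Of the 7 tRNAs tested 6 were higher, at levels under 8 CPM in every library. For all of the 7 but mt-Tp the second table holds at most 20 counts each, against 91 to 1416 in the table analysed, so these tRNA calls depend on the table.

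**Figure D2:**
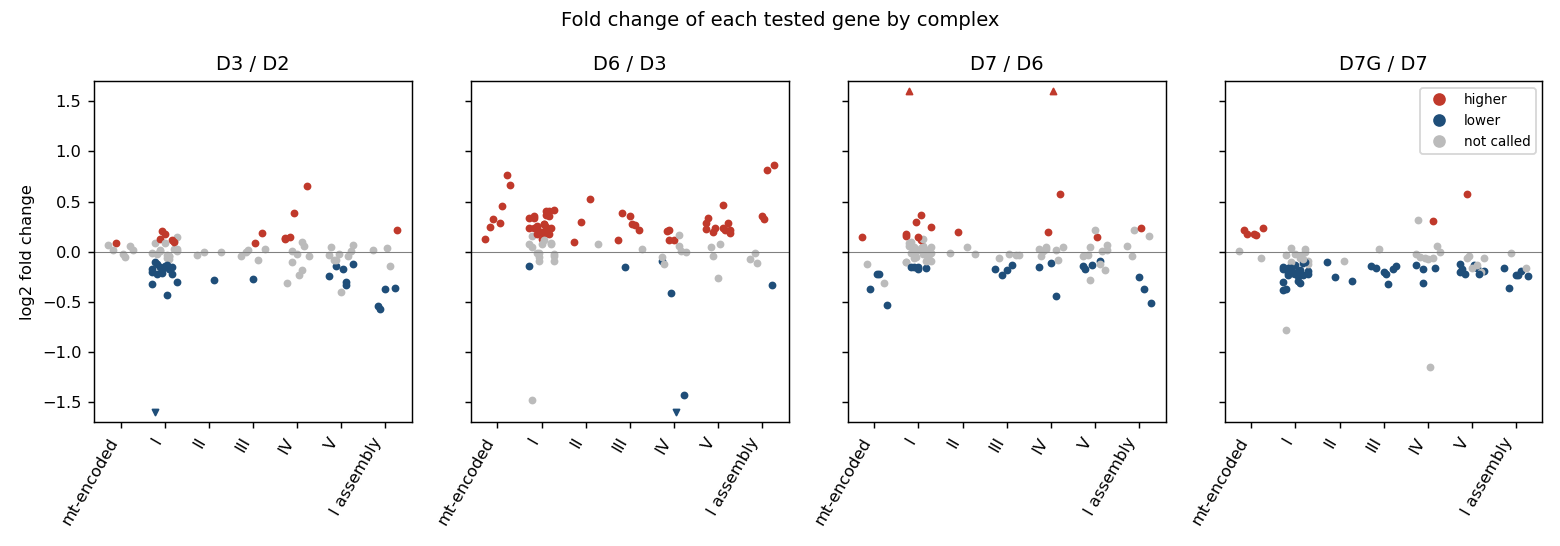
Log2 fold change of each tested gene (one point each, n = 2 libraries per group) by class in D3 against D2, D6 against D3, D7 against D6 and D7G against D7. Red points were called higher, blue lower and grey neither by edgeR at an adjusted p under 0.05; triangles at the edge mark genes beyond the axis. Most points are above 0 in D6 against D3, and in D7G against D7 nuclear encoded genes are mostly below 0 while 5 of the 7 mitochondrially encoded mRNAs were called higher.

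Between D6 and D7 without Gdf11 the nuclear subunits stayed in balance and mitochondrial mRNAs went down. At D7, 16 of the 105 members were higher and 28 lower than at D6, beside 20.5% and 15.6% of all tested genes; with library totals the split was 21 higher and 21 lower. Nuclear encoded subunits counted 13 higher and 16 lower of 79 with a median log2 fold change of -0.01, and mitochondrial mRNAs 1 higher and 4 lower of 7 with a median of -0.22. The count of higher members was 10 without a low-count filter, 9 in a fit of the D7 and D6 libraries alone and 8 without the second D7 library. The median over all tested genes was 0.04. Summed paraxial mesoderm markers were 21.4 to 21.5 CPM at D7, against 52.1 to 64.9 CPM at D6. Neural progenitor markers were 202 to 207 CPM at D7, against 142.5 to 162 CPM at D6. Neuromesodermal progenitor markers were 344 to 347 CPM at D7, against 476 to 479 CPM at D6, although Sox2 among them was higher. Fibroblast markers were 301 to 324 CPM at D7, against 185 to 197 CPM at D6, although Dcn among them overlapped. The part of cell makeup in the values of the members was not tested.

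mt-Nd2 had 1610 and 1567 CPM in D7 libraries, against 2330 and 2250 CPM in D6 libraries (log2 fold change -0.53, SE 0.03, edgeR adjusted p = 1.064e-09). mt-Nd1 had 3228 and 3196 CPM in D7 libraries, against 4202 and 4124 CPM in D6 libraries (log2 fold change -0.37, SE 0.03, edgeR adjusted p = 5.235e-08). mt-Co1 was the 1 mRNA called higher, with 9557 and 9746 CPM at D7, against 8393 and 9012 CPM at D6 (log2 fold change 0.15, SE 0.04, edgeR adjusted p = 0.003078). D7 and D6 libraries did not overlap for these 3 genes. The call of mt-Co1 was lost in a fit of both groups alone (adjusted p = 0.0536), without the first D6 library (adjusted p = 0.0704) and without the second D7 library (adjusted p = 0.112). mt-Nd4 and mt-Cytb each fell by 0.22 (edgeR adjusted p = 4.46e-05 for mt-Nd4 and 0.0001127 for mt-Cytb). mt-Rnr2 fell by 0.43 (SE 0.04, edgeR adjusted p = 1.926e-07), while the log2 fold change of mt-Rnr1 was 0.00 (edgeR adjusted p = 0.9757).

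Of the nuclear genes, 4 of 8 in complex III were lower in D7 against D6, beside 15.6% of all genes tested. In complex I 8 of 38 were higher and 5 lower, near the 20.5% higher and 15.6% lower among all genes tested. Ndufv3 rose by 0.37 (SE 0.05, edgeR adjusted p = 1.662e-05), to 42.2 and 43.7 CPM in D7 libraries, against 33.6 and 32.9 CPM in D6 libraries. Sdhc, a membrane anchor of complex II, rose by 0.20 (SE 0.04, edgeR adjusted p = 0.0002675), while Atp5g3 fell by 0.18 (SE 0.04, edgeR adjusted p = 0.0006087). Uqcrb of complex III fell by 0.23 (SE 0.06, edgeR adjusted p = 0.003803), a call lost without the second D6 library (adjusted p = 0.0544). Cox7c of complex IV fell by 0.44 (SE 0.10, edgeR adjusted p = 0.001285). Uqcrb shares 25.4% and Cox7c 22.1% of its 50-base stretches with other annotated genes, and both are uncertain. Atp5e of complex V had a log2 fold change of 0.15 (edgeR adjusted p = 0.01157) and Ndufs3 of complex I one of -0.18 (edgeR adjusted p = 0.04062); both calls were lost in several of the alternatives, with adjusted p up to 0.15 for Atp5e and 0.24 for Ndufs3.

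With Gdf11, nuclear encoded subunits and mitochondrial mRNAs moved in opposite directions. Gdf11 is a secreted ligand of the transforming growth factor beta family that patterns the body axis, and D7G against D7 compares 24 h with and without it. Of the 105 members 8 were higher and 56 lower in D7G, against a background of 22.5% higher and 18.2% lower among all genes tested. Nuclear encoded subunits were 2 higher and 48 lower of 79, with a median log2 fold change of -0.16, while 5 of the 7 mitochondrial mRNAs were higher, with a median of 0.18; the median over all tested genes was 0.02. The mitochondrial median minus the nuclear median was 0.33 on the log2 scale, compared with 0.06 in D3 against D2, 0.14 in D6 against D3 and -0.22 in D7 against D6, which shares the D7 libraries. The nuclear subunit share of all counts was 1.02% ± 0.00812 in D7G libraries and 1.14% ± 0.00628 in D7 libraries (mean ± SD, n = 2), and the mitochondrial share 2.48% and 2.38% in D7G libraries, against 2.25% and 2.25% in D7 libraries. Exact two-sided permutation tests gave p = 0.333 for both, the smallest that 2 against 2 allows.

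The fall in D7G spanned complexes I, II, III and V. Called lower were 26 of 38 genes in complex I, 3 of 4 in complex II, 7 of 8 in complex III and 8 of 15 in complex V, with medians of -0.17, -0.18, -0.17 and -0.16. In complex IV 4 of 14 were lower and 1 higher, and the median was -0.06. Ndufs7, which carries an iron-sulfur cluster of the complex I core, had 55.4 and 55.8 CPM in D7G libraries, against 72.4 and 72.4 CPM in D7 libraries (log2 fold change -0.38, SE 0.05, edgeR adjusted p = 3.5e-06). Sdhd, a membrane anchor of complex II, had 172 and 160 CPM in D7G libraries, against 205 and 203 CPM in D7 libraries (log2 fold change -0.30, SE 0.04, edgeR adjusted p = 1.713e-05). Uqcr11, a small subunit of complex III, had 37.8 and 39.6 CPM in D7G libraries, against 49.0 and 47.6 CPM in D7 libraries (log2 fold change -0.32, SE 0.05, edgeR adjusted p = 4.474e-05). In each of these genes both D7G libraries lay below both D7 libraries.

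Cox8a, the somatic isoform of a small complex IV subunit, had 147 and 139.5 CPM in D7G libraries, against 176 and 179 CPM in D7 libraries (log2 fold change -0.31, SE 0.04, edgeR adjusted p = 1.598e-06). Atp5h of the ATP synthase stalk had 50.1 and 53.7 CPM in D7G libraries, against 59.5 and 61.8 CPM in D7 libraries (log2 fold change -0.23, SE 0.05, edgeR adjusted p = 0.002505). It shares 19.9% of its 50-base stretches with other annotated genes. Cox4i1, the ubiquitous isoform of a subunit next to the catalytic core of complex IV, had 360 and 355 CPM in D7G libraries, against 361 and 367 CPM in D7 libraries, and passed no test (log2 fold change -0.03, SE 0.03, edgeR adjusted p = 0.5632).

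The 2 nuclear subunit genes called higher in D7G were Atp5l and Cox7c, and both values depended on the count table. Atp5l had 6.77 and 7.80 CPM in D7G libraries, against 5.12 and 4.67 CPM in D7 libraries (log2 fold change 0.58, SE 0.12, edgeR adjusted p = 0.0007773). In the second table, which holds 4.07 times as many counts for Atp5l, the log2 fold change was 0.23 (edgeR adjusted p = 0.04539). Cox7c had 10.9 and 12.2 CPM in D7G libraries, against 8.71 and 9.97 CPM in D7 libraries (log2 fold change 0.31, SE 0.10, edgeR adjusted p = 0.01577). The second table holds 7.64 times as many counts for Cox7c and gave the opposite direction, at -0.14 (edgeR adjusted p = 0.04319).

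On the mitochondrial side, mt-Nd2 had 1867 and 1882 CPM in D7G libraries, against 1610 and 1567 CPM in D7 libraries (log2 fold change 0.24, SE 0.03, edgeR adjusted p = 1.311e-05). mt-Nd1 had 3635 and 3620 CPM in D7G libraries, against 3228 and 3196 CPM in D7 libraries (log2 fold change 0.18, SE 0.03, edgeR adjusted p = 0.0002284). mt-Cytb had 4214 and 4127 CPM in D7G libraries, against 3752 and 3676 CPM in D7 libraries (log2 fold change 0.17, SE 0.04, edgeR adjusted p = 0.001369). Both D7G libraries were above both D7 libraries for these 3 mRNAs, and each was lower in D7 than in D6, a comparison that shares the D7 libraries. mt-Nd4 rose by 0.18 (SE 0.03, edgeR adjusted p = 0.0002681). mt-Nd5 rose by 0.22 (SE 0.05, edgeR adjusted p = 0.003108), a call lost with DESeq2 (adjusted p = 0.0509), without the second D7 library (adjusted p = 0.0709) and without the first D7G library (adjusted p = 0.0653).

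mt-Co1 had 10014 and 9424 CPM in D7G libraries, against 9557 and 9746 CPM in D7 libraries, and the groups overlapped (log2 fold change 0.01, SE 0.04, edgeR adjusted p = 0.854). mt-Nd6 had 46.1 and 29.1 CPM in D7G libraries, against 49.3 and 29.4 CPM in D7 libraries, so the spread within each group exceeded the difference between them. In the second table, which holds more counts for it, mt-Nd6 was called higher, at a log2 fold change of 0.21 (edgeR adjusted p = 0.0009549). Its value with Gdf11 therefore depends on the table. The rRNAs again differed in sign, with mt-Rnr1 at -0.14 (edgeR adjusted p = 0.0336) and mt-Rnr2 at 0.15 (edgeR adjusted p = 0.006465), but mt-Rnr1 lost its call without the first D7 library (adjusted p = 0.195) or the second D7G library (adjusted p = 0.198), and mt-Rnr2 without the second D7 library (adjusted p = 0.29) or the first D7G library (adjusted p = 0.118). The 7 tRNAs tested had edgeR adjusted p-values of 0.1637 to 0.938.

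**Figure D3:**
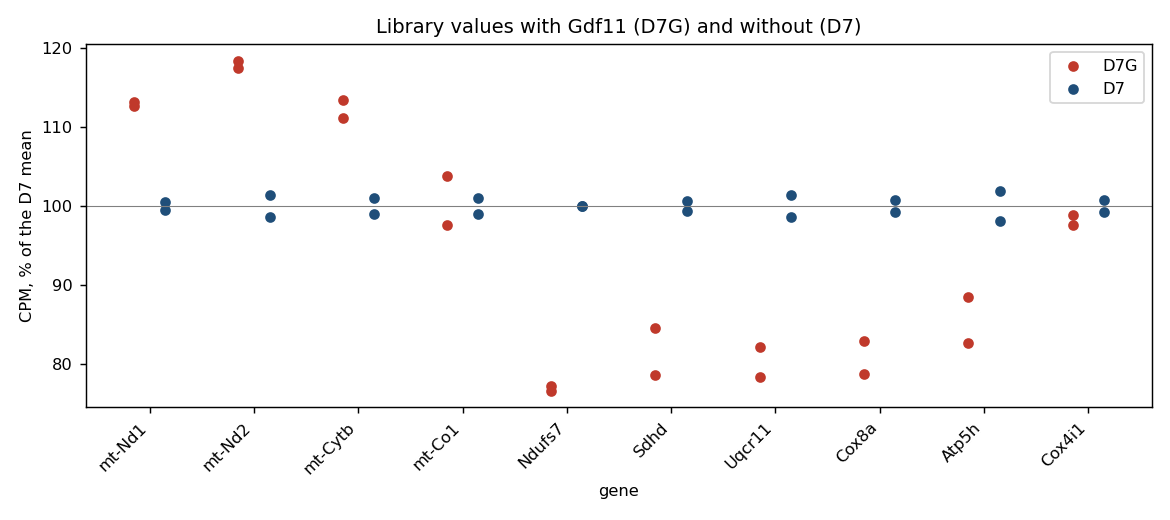
CPM of 10 members in the 2 D7G libraries (red, left of each pair) and the 2 D7 libraries (blue), as a percentage of the D7 mean of the gene. mt-Nd1, mt-Nd2 and mt-Cytb lie above 100% in both D7G libraries, Ndufs7, Sdhd, Uqcr11, Cox8a and Atp5h below the D7 libraries, and mt-Co1 overlaps.

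The genes called in D6 against D3 and in D7G against D7, which share no library, were set side by side. Of the 46 nuclear subunit genes higher in D6 than in D3, 32 were lower in D7G than in D7, which is 69.6% of the first set and 66.7% of the 48 in the second. Among all 79 nuclear subunits, 60.8% were lower in D7G and 58.2% higher at D6, so both shares lay near those of the class as a whole. Over all tested genes, 1911 were in both sets, which is 31.3% of the genes higher at D6 and 55.9% of those lower in D7G. Among all tested genes 18.2% were lower in D7G and 32.4% higher at D6, so both of these shares lay above the base. Relative to the D2 mean, the median level of the 79 nuclear subunits was -0.05 and -0.04 on the log2 scale in the D7G libraries, against 0.09 and 0.08 in the D7 libraries, after 0.14 and 0.09 in the D6 libraries. Complex III lay lowest, at -0.16 and -0.18 in D7G libraries, against 0.03 and 0.03 in D7 libraries.

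**Figure D4:**
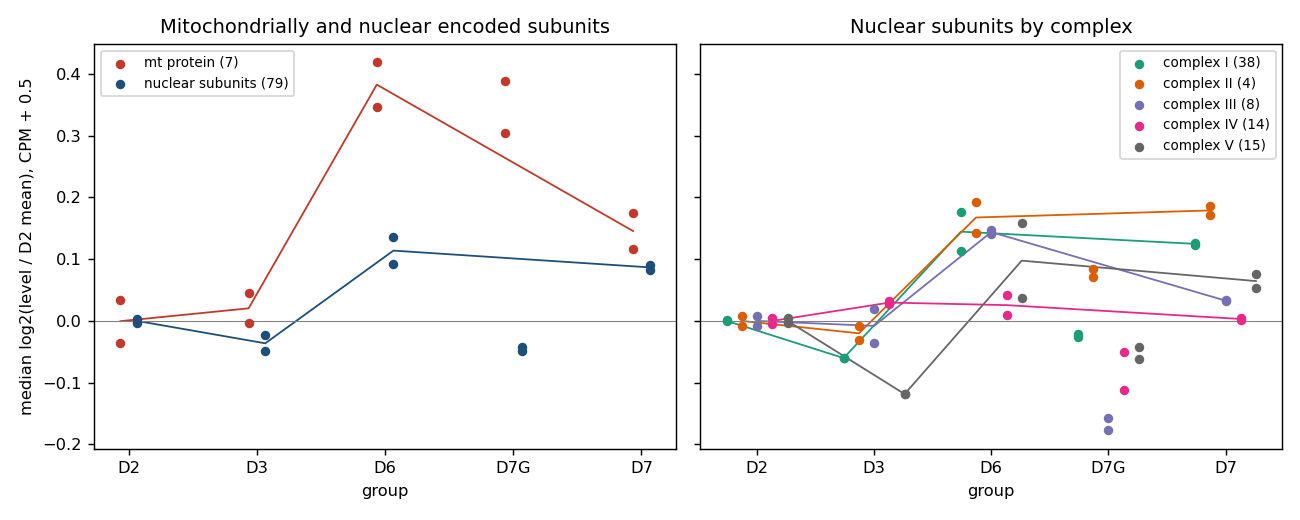
Median log2 of the level in each library over the D2 mean (CPM plus 0.5) for mitochondrially encoded mRNAs (7 genes) and nuclear encoded subunits (79 genes) at left, and for the nuclear subunits by complex at right. Points are libraries, and the line joins the means of D2, D3, D6 and D7. Nuclear subunits in D7G lie below 0 in complexes I, III, IV and V, while mitochondrial mRNAs in D7G lie above those in D7.

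Markers of other cell types moved with Gdf11 too. The summed level of 7 fibroblast markers was 946 to 1097 CPM in D7G libraries, against 301 to 324 CPM in D7 libraries, with none of the 7 at 0. For 6 of the 7, Col1a1, Col1a2, Col3a1, Postn, Thy1 and Lum, both D7G libraries lay above both D7 libraries. Col1a1, a collagen also made by mesodermal cells, had 231 and 252 CPM in D7G libraries, against 25.9 and 28.7 CPM in D7 libraries. Lum, which encodes a proteoglycan of connective tissue, had 13.2 and 17.2 CPM in D7G libraries, against 1.62 and 0.632 CPM in D7 libraries. Dcn, another such proteoglycan, had 0.658 and 0.684 CPM in D7G libraries, against 0.778 and 0.271 CPM in D7 libraries, and was the 1 marker whose groups overlapped. Summed over 6 genes, neuronal markers were at 262 to 271 CPM in D7G libraries, against 139 to 140 CPM in D7 libraries. Elavl4 among them overlapped. The sum of 4 neural progenitor markers was 113 to 119 CPM in D7G libraries, against 202 to 207 CPM in D7 libraries. Neuromesodermal progenitor markers were 276 to 280.5 CPM in D7G libraries, against 344 to 347 CPM in D7 libraries, although T was higher. Paraxial mesoderm markers were 12.2 to 13.4 CPM in D7G libraries, against 21.4 to 21.5 CPM in D7 libraries. Of these only Meox1 was lower, while Msgn1 and Tcf15 were higher and Tbx6 overlapped. The part of cell makeup in the oxidative phosphorylation result was not tested.

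Complex I assembly factors, which build the complex without remaining in it, ranged in log2 fold change from -0.33 to 0.86 in D6 against D3. Ndufaf4 had 79.0 and 72.8 CPM in D6 libraries, against 41.6 and 42.1 CPM in D3 libraries (log2 fold change 0.86, SE 0.05, edgeR adjusted p = 1.838e-11). It fell again to 54.7 and 51.6 CPM in D7 libraries, against 79.0 and 72.8 CPM in D6 libraries (log2 fold change -0.52, SE 0.05, edgeR adjusted p = 3.005e-07). Ndufaf2, singled out after its values were seen, rose by 0.81 in D6 against D3 (edgeR adjusted p = 2.156e-10) and fell by 0.37 in D7 against D6 (edgeR adjusted p = 4.651e-05). In D3 against D2, 4 of the 8 assembly factors were lower and 1 higher, beside 28.9% lower and 29.6% higher among all genes tested. The lower ones were Ndufaf3, Ndufaf6, Ndufaf8 and Ndufaf7. Ndufaf3 had the largest fall, by 0.57 (SE 0.09, edgeR adjusted p = 1.646e-05). Ndufaf7 fell by 0.36 at that step (edgeR adjusted p = 3.97e-05) and by a further 0.33 in D6 against D3 (SE 0.06, edgeR adjusted p = 0.0001478), where it was the 1 assembly factor called lower. In D7 against D6 Ndufaf5 had a log2 fold change of 0.24 (edgeR adjusted p = 0.01693), a call lost in 6 alternatives. In D7G against D7, 6 of 8 assembly factors were lower, beside 18.2% of all genes tested. Ndufaf6 fell most, with 12.9 and 13.1 CPM in D7G libraries, against 16.2 and 17.2 CPM in D7 libraries (log2 fold change -0.37, SE 0.08, edgeR adjusted p = 0.001509).

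Isoform genes of complex IV changed at each step up to D7. Cox6b2, known in adult mammals as the testis isoform of the Cox6b subunit, had 75.0 and 69.8 CPM in D3 libraries, against 46.0 and 46.1 CPM in D2 libraries (log2 fold change 0.65, SE 0.06, edgeR adjusted p = 5.973e-09). In D6 libraries it had 25.4 and 28.6 CPM, against 75.0 and 69.8 CPM in D3 libraries (log2 fold change -1.42, SE 0.06, edgeR adjusted p = 5.985e-14). It rose by 0.57 in D7 against D6 (SE 0.06, edgeR adjusted p = 1.055e-06), and D7G and D7 overlapped, with 42.8 and 40.5 CPM in D7G libraries, against 38.9 and 41.4 CPM in D7 libraries. As a share of both Cox6b genes, Cox6b2 made up 26.7% and 27.5% at D2, 35.4% and 33.6% at D3, 13.5% and 15.6% at D6 and 19.3% and 21.0% at D7. The ubiquitous Cox6b1 rose at D3 and again at D6, by 0.15 and 0.21 (edgeR adjusted p = 0.002995 and 0.0001062); the call at D3 was lost without the second D2 library (adjusted p = 0.051). The germ cell markers Ddx4, Dazl and Sycp3 summed to 28.9 to 29.7 CPM at D3, against 67.8 to 68.8 CPM at D2, where Cox6b2 rose. Their sum was 12.8 to 13.6 CPM at D6, against 28.9 to 29.7 CPM at D3. At D7 the sum was 18.4 to 18.9 CPM, against 12.8 to 13.6 CPM at D6. These are the directions of Cox6b2 at both later steps. Among the markers, however, Dazl went the other way in D6 against D3, where it rose while Ddx4 and Sycp3 fell. The part of germ cells in the Cox6b2 values was not tested.

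Cox7a2l, which takes part in joining complexes III and IV into supercomplexes, had 114 and 111 CPM in D3 libraries, against 83.9 and 88.3 CPM in D2 libraries (log2 fold change 0.39, SE 0.04, edgeR adjusted p = 1.087e-07). It fell by 0.41 in D6 against D3 (SE 0.04, edgeR adjusted p = 3.388e-08), rose by 0.19 in D7 against D6 (SE 0.04, edgeR adjusted p = 0.001187) and passed no test in D7G against D7 (log2 fold change -0.06, edgeR adjusted p = 0.232). These are the directions of Cox6b2 at the same 3 steps. C57BL/6 mice, the background of this line, are known to carry a shortened form of the protein. Cox7a2l shares 13.8% of its 50-base stretches with a processed pseudogene, and Cox6b2 shares 0%. Its relative Cox7a2 was level up to D7 (edgeR adjusted p from 0.1262 to 0.8926 over these 3 steps) and fell by 0.16 in D7G against D7 (edgeR adjusted p = 0.003372).

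Ndufa4, named for complex I but since assigned to complex IV, rose by 0.18 in D3 against D2 (edgeR adjusted p = 0.0003216) and by 0.12 in D6 against D3 (edgeR adjusted p = 0.005188, and 0.265 with library totals), and fell by 0.15 in D7 against D6 (edgeR adjusted p = 0.002659) and by 0.13 in D7G against D7 (edgeR adjusted p = 0.006511). In the counts by complex, Ndufa4 was kept with complex I by its name. The muscle and heart isoforms Cox6a2, Cox7a1 and Cox8b were low or at 0 throughout. Cox7a1 averaged 2.18 CPM at D7 to 3.04 CPM at D2, Cox6a2 had at most 0.590 CPM, and Cox8b had no count. Calls for Cox6a2 and for Ndufa4l2, a hypoxia-linked relative of Ndufa4, rest on levels of about 1 CPM or less, and Ndufa4l2 lost its calls in D3 against D2 and D7 against D6 when single libraries were left out. Atp5g1, Atp5g2 and Atp5g3 encode the same mature c-ring subunit. Atp5g3 averaged 146 CPM per kb at D2, Atp5g1 2.49 and Atp5g2 1.97, but the second table holds 4.11 times as many counts for Atp5g1 and 29.7 times as many for Atp5g2, which share 11.1% and 36.7% of their stretches with pseudogenes and other genes. The levels of Atp5g1 and Atp5g2 and their order are therefore uncertain. For Atp5g3 the second table holds 0.999 times as many counts.

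**Figure D5:**
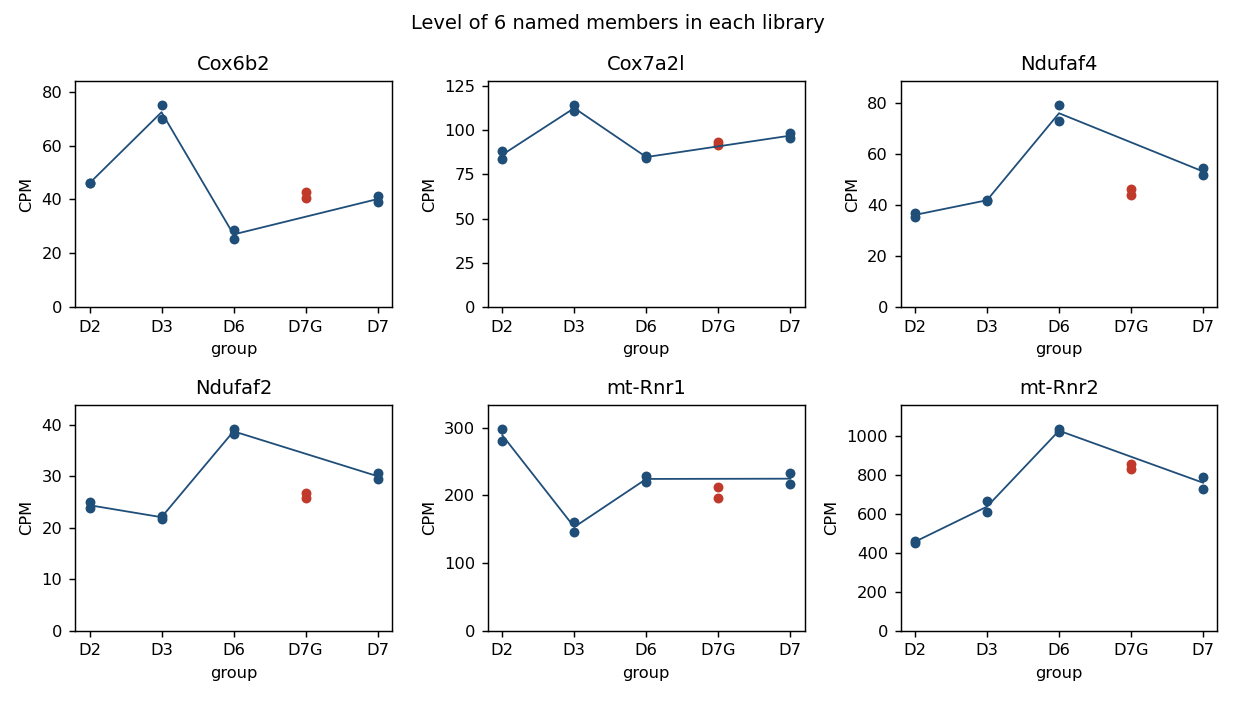
CPM of Cox6b2, Cox7a2l, Ndufaf4, Ndufaf2, mt-Rnr1 and mt-Rnr2 in each library. Red points are D7G libraries, blue points the other groups, and the line joins the means of D2, D3, D6 and D7. Cox6b2 and Cox7a2l peak at D3, Ndufaf4, Ndufaf2 and mt-Rnr2 at D6, and mt-Rnr1 is highest at D2.

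Other mitochondrial and metabolic gene lists were read beside the members. Among all genes tested in D7G against D7, 18.2% were lower and 22.5% higher, with a median log2 fold change of 0.02. In D7G against D7, 44 of 77 mitochondrial ribosomal proteins were lower (median log2 fold change -0.15), as were 13 of 18 genes of the tricarboxylic acid cycle (median -0.15), 8 of 12 genes of electron carriers and coenzyme Q synthesis (median -0.18) and 14 of 16 glycolytic genes (median -0.33). Slc2a1, the glucose transporter, averaged 475 CPM in D7G and 1089 CPM in D7 libraries (log2 fold change -1.20, edgeR adjusted p = 7.718e-14), and Ldha, lactate dehydrogenase, 600 CPM in D7G and 1003 CPM in D7 libraries (log2 fold change -0.74, edgeR adjusted p = 7.727e-12). Suclg2, a subunit of succinyl-CoA synthetase, fell by 0.52 (edgeR adjusted p = 1.006e-08). Of 17 genes that copy, transcribe or stabilise mitochondrial DNA and RNA, 5 were lower and 1 higher (median -0.09). Among them Tfb1m, a methyltransferase of the small rRNA, fell by 0.49 (edgeR adjusted p = 6.289e-05), and Tfam, which packages mitochondrial DNA and was singled out after its values were seen, by 0.32 (edgeR adjusted p = 7.906e-06), while 5 mitochondrial mRNAs were higher.

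In D6 against D3, 52 of 77 mitochondrial ribosomal proteins were higher and 4 lower (median 0.22). Of 18 tricarboxylic acid cycle genes 13 were higher and 3 lower (median 0.30). Among all genes tested at this step, 32.4% were higher and 33.3% lower, with a median of -0.01. Idh2, the mitochondrial isocitrate dehydrogenase, averaged 235 CPM at D6 and 118 CPM at D3 (log2 fold change 1.00, edgeR adjusted p = 1.256e-14). Cycs, the somatic cytochrome c, rose by 1.06 (edgeR adjusted p = 9.801e-07), and Cyct, the testis form, fell by 1.85 (edgeR adjusted p = 4.282e-10), so the testis forms of cytochrome c and of Cox6b fell at the same step. Glycolytic genes were 11 higher and 3 lower of 16. At D3 against D2, 13 of 16 glycolytic genes were lower (median -0.63), beside 28.9% of all genes tested. Ldha averaged 473 CPM at D3 and 919 CPM at D2 (log2 fold change -0.96, edgeR adjusted p = 5.135e-14).

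D6 against D2 spans the first steps and shares their libraries: 56 members were higher and 18 lower at D6, beside 34.1% and 35.5% of all tested genes. Nuclear subunits were 38 higher and 12 lower of 79 (median 0.13), and the mitochondrial mRNAs 7 higher of 7 (median 0.40). The mitochondrial share of counts was 2.38% and 2.40% in D6 libraries, against 1.90% and 1.86% in D2 libraries. Ndufaf4 rose by 1.07 (SE 0.05, edgeR adjusted p = 5.164e-13), Uqcrh by 0.41 (SE 0.05, edgeR adjusted p = 1.097e-07) and Atp5g3 by 0.38 (SE 0.04, edgeR adjusted p = 6.96e-09), while Ndufaf7 fell by 0.69 (SE 0.06, edgeR adjusted p = 5.608e-09) and Ndufa7 by 0.47 (SE 0.05, edgeR adjusted p = 1.741e-08). Atp5b, with 1946 and 1965 CPM at D6, against 2056 and 2053 CPM at D2, passed the test narrowly (log2 fold change -0.07, SE 0.03, edgeR adjusted p = 0.04285) and lost the call in 9 alternatives. The authors' deposited table lists 94 of the 130 members, with a highest false discovery rate of 0.0642.

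Promoter windows from RefSeq (GRCm38.p6), from 250 bases before to 50 after the start, were found for 66 of the 79 tested nuclear subunit genes. The letters GCATGCG, from the motif of NRF1, a transcription factor known for respiratory chain genes, occurred on either strand in 11 of the 66 windows (16.7%), against 4.01% of the windows of all 27025 genes. ATGGCGG, from the YY1 motif, occurred in 10 of 66 (15.2%, against 4.69%), and CCGGAAG, from the motif of ETS factors, in 16 of 66 (24.2%, against 9.93%). Each motif was counted whether or not it overlapped another. Of the 41 genes with a window that were lower in D7G, 4 held the NRF1 letters, 8 the YY1 letters and 8 the ETS letters, compared with 6, 2 and 7 of the 23 not called. The 60-base stretches below show the NRF1 letters in capitals in Ndufa6 (chr15:82354340-82354399, minus strand), an accessory subunit of complex I that was lower in D7G, and in Cox6a1 (chr5:115349084-115349143, minus strand), the ubiquitous Cox6a isoform of complex IV that was not called, as examples of a feature the choice of genes did not use.
Ndufa6: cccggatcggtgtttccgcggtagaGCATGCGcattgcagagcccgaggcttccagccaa
Cox6a1: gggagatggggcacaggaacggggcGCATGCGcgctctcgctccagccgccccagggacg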

How the data were processed

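Total RNA of 10 libraries (5 groups of 2) was sequenced by the authors. The build mm10 and the tools limma, featureCounts 1.6.3, HISAT2 2.1.0 and STAR are listed, per the submitters' processing notes; their roles, the counting options, the use of strand and the selection of RNA are not given in the sources used here. The authors deposited raw counts per gene symbol (52459 symbols, 31078950 to 33418015 counts per library), which were the values analysed, and a second table of counts per Ensembl gene (55298 genes), used as an alternative. Another table by the authors holds, for listed genes, counts, CPM, log2 fold changes against D2 and p-values with false discovery rates; of it only the listed members were read.

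One edgeR 4.0.16 quasi-likelihood fit in R 4.3.3 covered all 10 libraries with 1 coefficient per group (5 residual degrees of freedom), TMM scaling and the default filterByExpr, which left 18818 genes. Benjamini-Hochberg adjustment ran over these genes together, and calls were made under an adjusted p of 0.05. CPM are counts over the TMM-scaled library size, and levels per kb use the exonic length in the table. Shared 50-base stretches were counted against GENCODE vM21 transcripts (mm10), for 129 members. Promoters came from RefSeq GRCm38.p6. No sequence on chromosome 18 was read for printing. Scripts were tested on simulated data.

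The members, gene lists, tests and alternatives were chosen with earlier results of these data known. Genes are named by a rule: the mitochondrial mRNAs and rRNAs, per class and comparison the largest called rise and fall with at least 5 CPM in a group, the isoform sets, and up to 3 called genes per other list. Genes just outside are marked as singled out. Alternatives were DESeq2 1.42.0, limma-voom (limma 3.58.1), library totals, RLE factors, other low-count filters, the second table, a fit of both groups alone, a replicate block and each library left out; counting only members that share under 10% of their stretches was added after seeing the data. Without molecular identifiers, PCR copies are not told apart. No sequence of proteins was used here.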

Additional observations from a re-analysis of the deposited data

How the results depend on the processing

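In D7G against D7, the counts of 8 higher and 56 lower members stayed within 1.5 times under every alternative run, and the mitochondrial minus nuclear median within its spread. With library totals, D3 against D2 gave 31 higher and 19 lower and D6 against D3 15 lower. D7 against D6 gave 10 higher without a filter and 9 from both groups alone. With single libraries left out, the lone library being assumed to vary like the other groups, D3 against D2 gave 10 to 16 higher and 19 to 29 lower, and D7 against D6 gave 8 to 12 higher. Counted over mitochondrial protein genes alone, the share of counts differed by -0.116 percentage points in D7 against D6 and by 0.457 in D6 against D2, and the second table put the mitochondrial minus nuclear median of D6 against D2 at 0.16. Cox7c in D7G against D7 reversed to -0.14 in the second table. For mt-Nd6 the same comparison went from -0.07 to 0.21 in the second table. It was not called in the table analysed, and the tally of named genes below covers called genes only. For these values the cause was not tested. Of 1435 values of named genes under alternatives, 1352 kept direction and call, 82 were no longer called and 1 reversed. Samples of the same replicate number deviated together only weakly (correlation 0.0351 to 0.0999) and the labels do not pair them; with the replicate block D3 against D2 gave 18 higher and 32 lower, D6 against D3 65 and 9, D7 against D6 16 and 29, D7G against D7 8 and 56 and D6 against D2 58 and 19. Most tRNAs and restricted isoforms lay under 1 CPM, and the tRNA counts differed widely between the count tables (mt-Tc held 2 counts in the first and 4984 in the second).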
